A study of Mus musculus with 3 samples.

Results

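The Krüppel-like factor (KLF) genes Klf2, Klf3, Klf4, Klf5, Klf6, Klf7, Klf9, Klf10, Klf11 and Klf13 were followed across mouse cells labelled as embryonic stem cells of 3 genotypes, LIFR KO, gp130 KO and wildtype. Members were all non-control probes whose transcript accession belongs to one of these genes, which gave 1 probe with 1 spot for each of 10 genes, out of 20637 genes that could be named on the array. LIFR binds LIF, a cytokine that sustains mouse stem cells in culture, and gp130, the product of Il6st, is its partner chain, used by the other IL-6 family receptors too. There was 1 single-colour Agilent array per genotype, so the data hold no replicates, no test was possible, and every difference is between 2 arrays. The labels give standard culture conditions for all cells and do not give the strain, the clone, the way the genes were disrupted, or the medium, and all groups were treated alike as far as they say.

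KLF proteins are transcription factors that bind CACCC and GC-rich sites in DNA through C2H2 zinc fingers at their carboxyl terminus, while the rest of the protein sets whether they activate or repress. In mouse embryonic stem cells KLF2, KLF4 and KLF5 are known to hold up the naive pluripotent state together, and Klf4 is known as a gene that LIF switches on through STAT3. Outside stem cells, Klf4 and Klf5 are well known from epithelia, Klf2 from endothelium and T cells, Klf9 as a target of the glucocorticoid receptor, and Klf10 as an early target of TGF-beta.

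Promoter windows from RefSeq (build GRCm38.p6), running from 250 bases before to 50 bases after the transcription start, matched 8 of the 10 genes, all but Klf5 and Klf10, each on a different chromosome. The windows of the 4 members below are shown because these genes differed between arrays by more than the scanner error in at least 1 comparison. They are, in the order printed, chr8:72318812-72319111 (plus strand), chr13:5861239-5861538 (plus strand), chr19:23140976-23141275 (plus strand) and chr12:24651121-24651420 (plus strand), each written 5′ to 3′. Capitals mark matches on either strand to the letters that KLF and SP proteins are known to bind, CACCC and GGGCGG, and neighbouring matches run together.
Klf2: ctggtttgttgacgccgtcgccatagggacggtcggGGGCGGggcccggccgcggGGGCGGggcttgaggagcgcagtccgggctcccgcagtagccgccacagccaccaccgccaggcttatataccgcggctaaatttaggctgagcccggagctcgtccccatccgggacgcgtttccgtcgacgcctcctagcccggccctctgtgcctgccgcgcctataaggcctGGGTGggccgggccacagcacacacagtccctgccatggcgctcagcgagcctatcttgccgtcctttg
Klf6: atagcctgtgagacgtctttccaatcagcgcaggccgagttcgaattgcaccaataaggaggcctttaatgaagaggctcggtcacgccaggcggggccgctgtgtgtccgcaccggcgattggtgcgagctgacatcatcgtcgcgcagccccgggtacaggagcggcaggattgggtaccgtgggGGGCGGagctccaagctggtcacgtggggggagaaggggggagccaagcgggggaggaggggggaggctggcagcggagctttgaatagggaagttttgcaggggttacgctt
Klf9: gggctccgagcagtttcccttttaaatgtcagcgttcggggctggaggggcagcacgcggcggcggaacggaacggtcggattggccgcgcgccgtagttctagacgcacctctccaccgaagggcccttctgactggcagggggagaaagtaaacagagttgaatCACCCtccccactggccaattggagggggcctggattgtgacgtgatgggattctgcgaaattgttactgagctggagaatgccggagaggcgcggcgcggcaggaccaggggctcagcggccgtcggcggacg
Klf11: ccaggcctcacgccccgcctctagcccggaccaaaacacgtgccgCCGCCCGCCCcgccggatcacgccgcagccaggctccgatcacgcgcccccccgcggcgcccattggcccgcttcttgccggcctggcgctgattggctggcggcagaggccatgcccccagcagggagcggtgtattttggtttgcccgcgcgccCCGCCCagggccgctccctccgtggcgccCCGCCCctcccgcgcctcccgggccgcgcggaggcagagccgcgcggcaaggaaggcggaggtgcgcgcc
The 8 windows were rich in G and C, from 58.3% to 77.7%, against a median of 52.7% over 32851 promoter windows of the same length. They held between 16 and 42 CpG dinucleotides, against a median of 7. GGGCGG occurred in 7 of the 8, all but Klf9, and in 35.7% of all windows, while CACCC occurred in 5 of the 8 and in 57.5% of all windows. The E-box letters CACGTG stood in the windows of Klf4, Klf6 and Klf11 and in 7.15% of all windows. The STAT element TTCNNNGAA stood in 1 member window, that of Klf9 at position -33 from the start, and in 8.3% of all windows. TGACGTCA, the cyclic AMP response element, and the CArG box were in none of the 8, against 1.79% and 1.63% of all windows. These are matches of letters, and no binding was measured.

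On the arrays, 22974 of 39429 probes (58.3%) were well above background in LIFR KO, 25817 (65.5%) in gp130 KO and 25373 (64.4%) in wildtype. Both targeted genes gave signal in every genotype. Scaled Lifr signals were 26.5 in LIFR KO, 35.4 in gp130 KO and 34.9 in wildtype, and Il6st signals were 327, 305 and 329 in the same order. The sources do not place either probe relative to the disruption, so these values check nothing about the labels. Of 12 pluripotent stem cell markers, 8 were well above background in all arrays, and Sox2, Zfp42, Dppa3 and Fgf4 were so in none. The flag does not mean strong signal. Among the 8, Pou5f1 had only 20.1 in LIFR KO, 20.7 in gp130 KO and 31.2 in wildtype, and Lin28a had 474, 837 and 727. All 10 epithelial markers were well above background on every array, while 4 of 6 endothelial markers (Cdh5, Tek, Tie1 and Emcn) and 3 of 5 blood markers (Lyz2, Hbb-bs and Gata1) were so on none. The summed scaled signal of the stem cell markers was 1627 in LIFR KO, 2172 in gp130 KO and 2004 in wildtype, and that of the epithelial markers 74769, 72715 and 68459; 3 of 8 fibroblast markers were detected on all arrays, with sums of 571, 548 and 379. The endothelial sums were 1027 in LIFR KO, 1264 in gp130 KO and 1357 in wildtype, and the blood sums 295, 448 and 519. Such sums add unlike probes and follow a few of them, so they do not measure the makeup of the cultures. Krt18 alone had 44855 in LIFR KO and 39533 in wildtype, and Col1a1, a fibroblast marker, 228 and 70.4. What part the makeup of the cultures has in the KLF values was not tested, and in such bulk samples fewer cells of a type and less RNA per cell cannot be told apart.

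All 10 KLF probes were well above background on all 3 arrays, none was marked as an outlier or saturated, and none lay in the stray signal that covered part of the LIFR KO array. Local background at these spots was between 17 and 34, against an array median of 23.5 and a highest value of 25884 in LIFR KO. Signals below were scaled so that each array has the 75th percentile of the wildtype array, which multiplied the LIFR KO signals by 0.886 and the gp130 KO signals by 1.02. Each value carries the scanner software's own error, which gives a log2 ratio of 2 arrays an error of 0.20 (0.22 for Klf11) and a 95% interval from scanner error alone. That interval leaves out the spread between cultures, and its 95% is nominal. The error was nearly a fixed share of the signal, so being beyond the interval is close to a rule of size. Repeated spots gave a 95% half-width of 0.15 for the log2 ratio of 2 single spots. Apart from the marker signals and sums above, signals of different probes were not set against each other, since probes differ in their response.

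**Figure D1:**
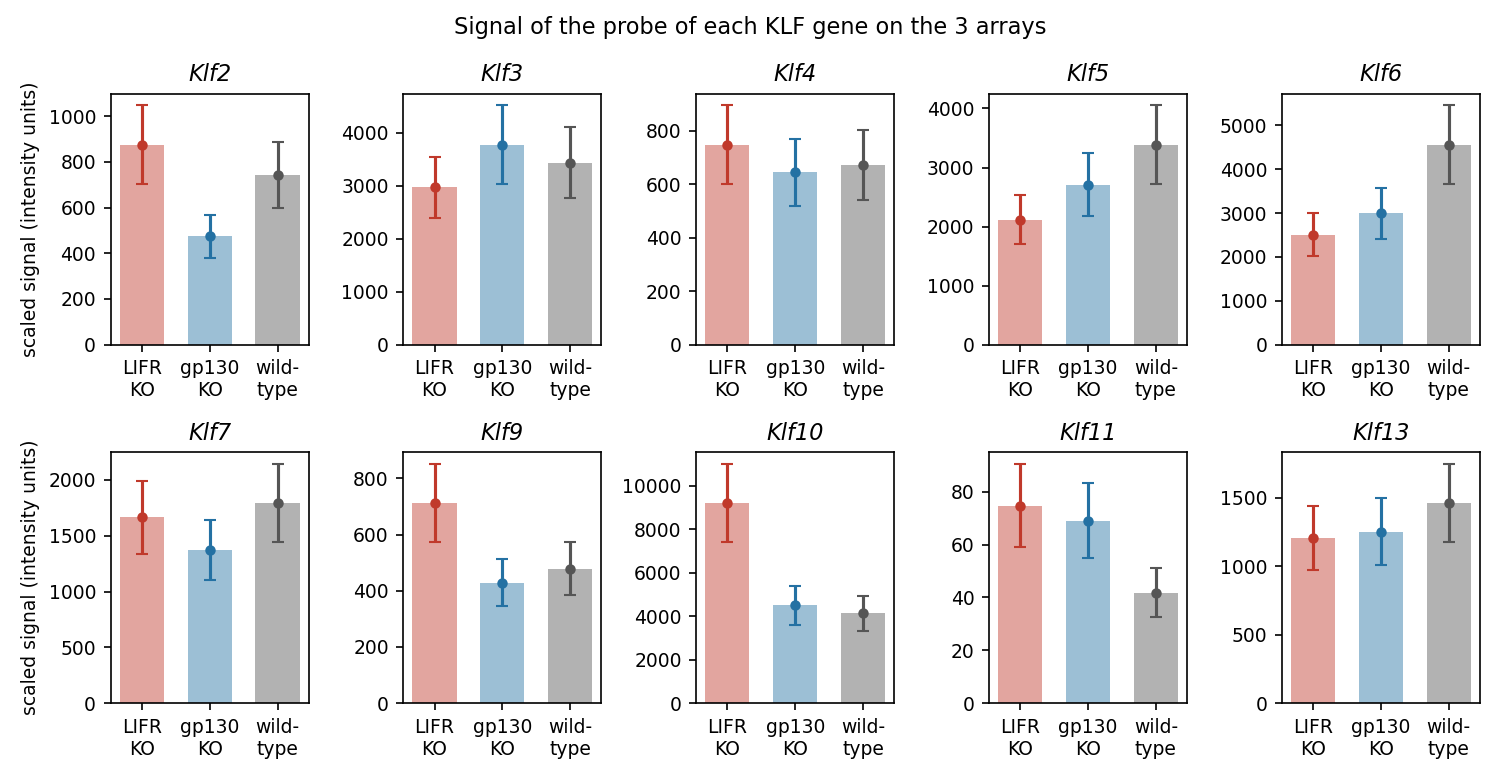
Scaled signal in intensity units of the 1 probe of each of 10 KLF genes on the LIFR KO, gp130 KO and wildtype arrays; bars and points give the signal, whiskers the 95% scanner interval, and each panel has its own axis from 0. Klf10 stood at 9202 in LIFR KO, against 4496 in gp130 KO and 4127 in wildtype, while both knockouts lay under wildtype for Klf5 and Klf6 and above it for Klf11.

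The first question was which KLF genes differed on the LIFR KO array. Klf10 was the 1 member of 10 past 2-fold, a share of 10%, higher in LIFR KO, where 4.49% of 14553 genes compared were past 2-fold, 2.87% on the higher and 1.62% on the lower side. Scaling on medians split all such genes into 550 higher and 153 lower, against 417 and 236 here. With 10 genes, 1 call is not a result about the family. Klf10, Klf11 and Klf9 were higher in LIFR KO, and Klf6 and Klf5 lower, by more than the scanner interval, so 5 of 10 members were beyond it, against 21.7% of 13139 genes well above background on both arrays (9.73% higher and 12.0% lower). The median log2 ratio of the 10 members was 0.02, against -0.03 over all genes compared, since the members went both ways.

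In gp130 KO none of the 10 members was past 2-fold, where 2.4% of 14905 genes were, 1.61% higher and 0.785% lower. The authors' series matrix split such genes into 161 higher and 130 lower, against 240 and 117 here. Klf2 and Klf6 were lower, and Klf11 higher, by more than the scanner interval, or 3 of 10 members against 9.82% of 14083 genes well above background on both arrays (5.16% higher and 4.66% lower). The median log2 ratio over wildtype was -0.19, against 0.03 over all genes compared, with 7 of 10 members under 0. The highest of these 7 was Klf4 at -0.06, and 35.0% of all genes compared were as low or lower. Both comparisons share the wildtype array, so a high or low wildtype value of a gene moves both of its ratios.

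**Figure D2:**
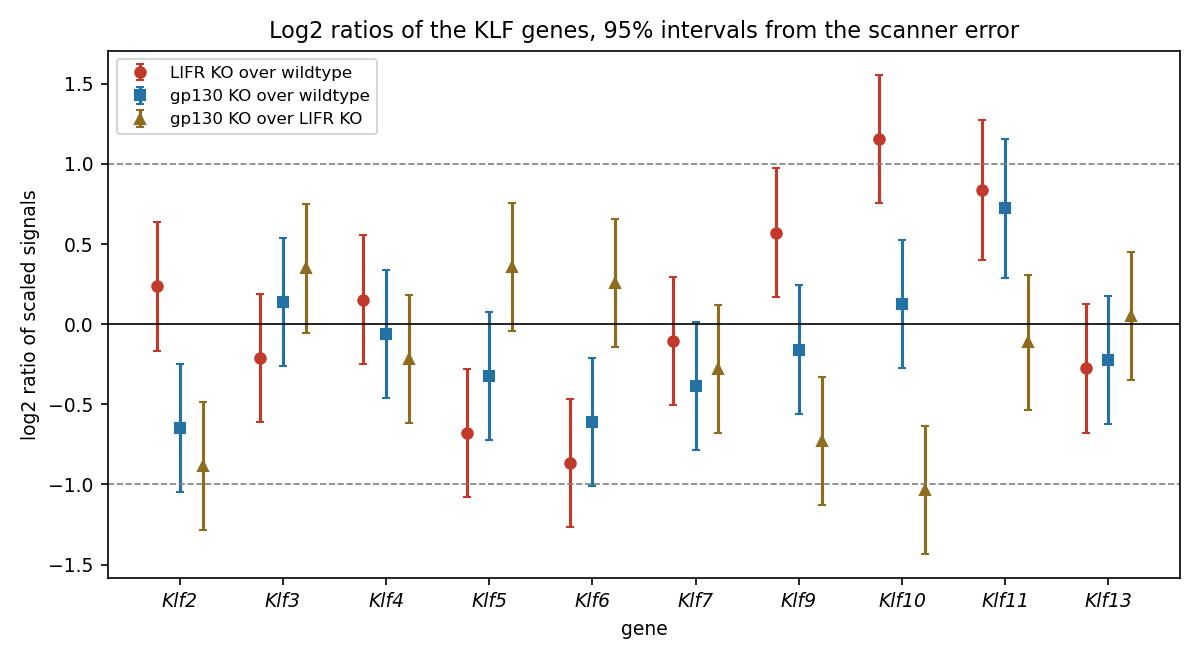
Log2 ratios of scaled signals for the 10 KLF genes, with LIFR KO over wildtype as circles, gp130 KO over wildtype as squares and gp130 KO over LIFR KO as triangles; whiskers are 95% intervals from scanner error and dashed lines mark 2-fold. Klf10 lay past the dashed lines in 2 of the 3 comparisons, at 1.16 and -1.03.

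The members that are known mainly as activators are Klf2, Klf4, Klf5, Klf6 and Klf7. In gp130 KO all 5 had a log2 ratio under 0, from -0.65 to -0.06, but only Klf2 and Klf6 were beyond the scanner interval. Of all genes compared, 35.0% had a ratio as low as the -0.06 of Klf4 or lower, so a ratio under 0 was common. In LIFR KO 3 of the 5 activators were under 0 and 2 above, from -0.86 to 0.24. Klf2, a factor of naive pluripotency and of quiescence in endothelium and T cells, had a scaled signal of 875 in LIFR KO, 474 in gp130 KO and 743 in wildtype. It was thus low on the gp130 KO array alone, 1.57-fold under wildtype (log2 ratio -0.65, 95% scanner interval -1.05 to -0.25) and 1.85-fold under LIFR KO (log2 ratio -0.88, -1.29 to -0.48). For LIFR KO over wildtype its log2 ratio of 0.24 had an interval from -0.16 to 0.64. Of all genes compared, 2.35% had a gp130 KO over wildtype ratio as low as that of Klf2 or lower, and 2.44% a gp130 KO over LIFR KO ratio as low.

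Klf4, one of the factors used to reprogram somatic cells to pluripotency and a known gene of terminal differentiation in epithelia, had 748 in LIFR KO, 644 in gp130 KO and 673 in wildtype. Its 3 values lay within the scanner interval of each other, with log2 ratios of 0.15 (-0.25 to 0.55) for LIFR KO and -0.06 (-0.46 to 0.34) for gp130 KO over wildtype. These intervals leave room for a change in either direction, so the arrays do not show that Klf4 was the same, and a loss of 2-fold or more lies outside both intervals as far as scanner error goes.

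Klf5, a factor of stem cell self-renewal and of proliferating epithelial cells, had 2112 in LIFR KO, 2707 in gp130 KO and 3387 in wildtype. Wildtype was the highest of its 3 arrays. Klf5 was 1.60-fold lower in LIFR KO than in wildtype (log2 ratio -0.68, -1.08 to -0.28), and 5.08% of genes compared were as low or lower. In gp130 KO its log2 ratio of -0.32 had an interval from -0.72 to 0.08, and the 2 knockouts differed by a log2 ratio of 0.36 (-0.04 to 0.76).

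Klf6, a widely expressed immediate early gene, had 2505 in LIFR KO, 2990.2 in gp130 KO and 4559 in wildtype, the same order as Klf5. Among the 10 members it alone was lower by more than the scanner interval in both knockouts. It was 1.82-fold lower in LIFR KO (log2 ratio -0.86, -1.26 to -0.46) and 1.52-fold lower in gp130 KO (log2 ratio -0.61, -1.01 to -0.21) than in wildtype, and 2.58% and 2.80% of genes compared were as low or lower. The knockouts differed from each other by 0.26 (-0.14 to 0.66).

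Klf7, known for its role in the development of sensory neurons, had 1666 in LIFR KO, 1370.4 in gp130 KO and 1792 in wildtype. Its lowest value was in gp130 KO, where the log2 ratio over wildtype of -0.39 had an interval from -0.79 to 0.01. In LIFR KO the ratio was -0.11 (-0.51 to 0.29), and it turned to 0.05 when the arrays were scaled on their medians, so it has no settled direction.

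Klf3 is the member known as a repressor that works through the corepressor CtBP. It had 2968 in LIFR KO, 3776 in gp130 KO and 3437 in wildtype, with log2 ratios of -0.21 (-0.61 to 0.19) for LIFR KO and 0.14 (-0.26 to 0.54) for gp130 KO over wildtype. The values overlapped within scanner error on all 3 arrays, with gp130 KO over LIFR KO at 0.35 (-0.05 to 0.75). Local background at the Klf3 and Klf4 spots was 34 in LIFR KO, the highest among the members.

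Klf9, Klf10, Klf11 and Klf13 encode repressors known to recruit the corepressor SIN3A. In LIFR KO 3 of these 4 were higher than wildtype by more than the scanner interval, where 9.73% of 13139 genes were. The median log2 ratio over the 4 was 0.70, against -0.03 over all genes compared. In gp130 KO 1 of 4 was higher by that rule, where 5.16% of 14083 genes were. The median there was -0.02, against 0.03. In LIFR KO Klf13 was at -0.28, and Klf16, of the same type but not among the members, was at 0.10. With 4 genes and 1 array per genotype, these counts are not a result about repressors of this type. Klf10, also called TIEG1, had 9202 in LIFR KO, 4496 in gp130 KO and 4127 in wildtype. The LIFR KO array stood apart and the other two were close together. Klf10 was 2.23-fold higher in LIFR KO than in wildtype (log2 ratio 1.16, 0.76 to 1.56), which 2.32% of genes compared reached or passed. It was 2.05-fold lower in gp130 KO than in LIFR KO (log2 ratio -1.03, -1.43 to -0.63), and gp130 KO over wildtype was 0.12 (-0.28 to 0.52). Under the normexp background correction fitted on all spots, the LIFR KO over wildtype ratio of Klf10 was 0.67 and no longer past 2-fold. When the spots in stray signal were left out of that fit, it was 1.17.

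Klf9 had 711 in LIFR KO, 429 in gp130 KO and 479 in wildtype. As with Klf10, the LIFR KO array was the high one. Klf9 was 1.49-fold higher in LIFR KO than in wildtype (log2 ratio 0.57, 0.17 to 0.97), which 6.64% of genes compared reached or passed. In gp130 KO it was 1.66-fold lower than in LIFR KO (log2 ratio -0.73, -1.13 to -0.33), and its ratio over wildtype was -0.16 (-0.56 to 0.24).

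Klf11, or TIEG2, the nearest relative of Klf10, had 74.8 in LIFR KO, 69.1 in gp130 KO and 41.9 in wildtype. Both knockouts were above wildtype by more than the scanner interval, whereas for Klf10 only LIFR KO was. It was 1.79-fold higher in LIFR KO (log2 ratio 0.84, 0.40 to 1.28) and 1.65-fold higher in gp130 KO (log2 ratio 0.72, 0.29 to 1.16), and 3.80% and 3.06% of genes compared were as high or higher. These signals were the nearest of the 10 to their local background, which was 19 to 23, and the ratios moved with the background correction: with normexp they were 1.61 and 0.38, and when the spots in stray signal were left out of that fit, 0.37 in both. Klf13, known from T cells as a regulator of Ccl5, had 1206 in LIFR KO, 1252 in gp130 KO and 1460.4 in wildtype. Its log2 ratios of -0.28 (-0.68 to 0.12) and -0.22 (-0.62 to 0.18) over wildtype lay within the scanner interval.

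The comparison of gp130 KO with LIFR KO does not use the wildtype array, though it shares 1 array with each of the others. In it 1 of the 10 members was past 2-fold, namely Klf10 on the lower side, where 3.35% of 14766 genes compared were past 2-fold, 1.29% higher and 2.05% lower. With scaling on medians, 128 genes were higher and 387 lower, against 191 and 303 here, and Klf2 was past 2-fold too. Under normexp on all spots Klf10 stood at -0.52, no longer past 2-fold, and Klf11 at -1.23 was the 1 member past it. Klf2, Klf9 and Klf10 were lower in gp130 KO by more than the scanner interval, and none was higher, against 15.2% of 13168 genes beyond it (8.34% higher and 6.83% lower). The median log2 ratio of the 10 was -0.16, against 0.05 over all genes compared.

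**Figure D3:**
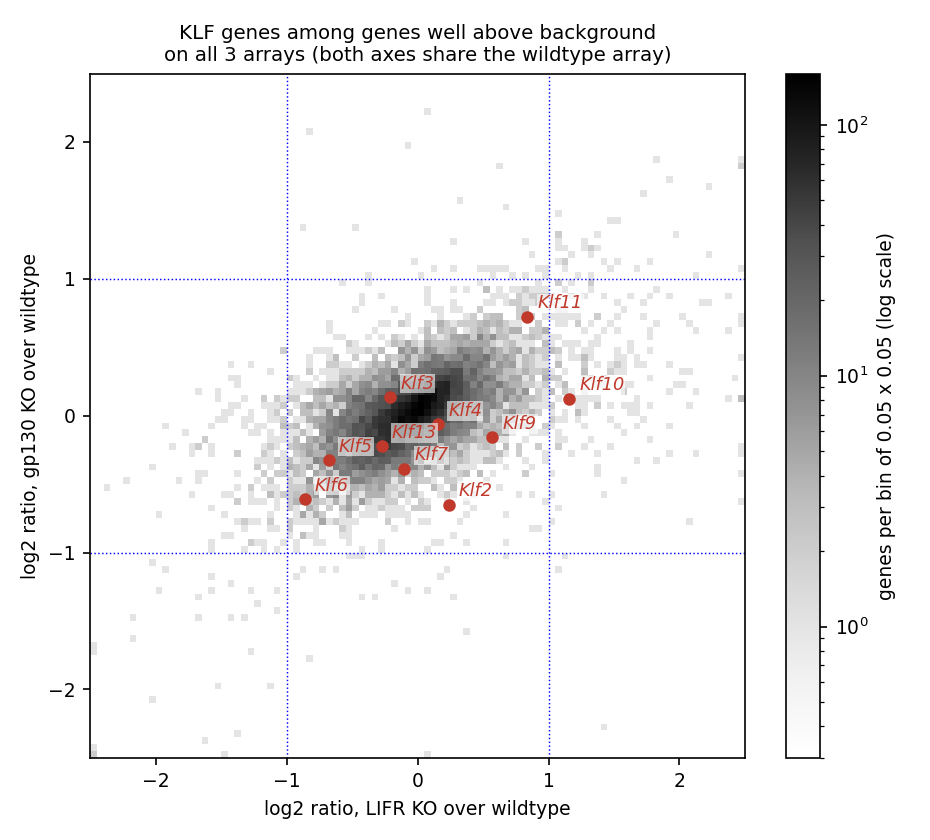
Log2 ratio over wildtype of gp130 KO (vertical axis) against that of LIFR KO (horizontal axis) for 13121 genes well above background on all 3 arrays, in grey by number of genes per bin on a log scale, with the 10 KLF genes in red and dotted lines at 2-fold; values past 2.5 are drawn at the edge. Both axes share the wildtype array, so the slope of the grey cloud is not evidence of a common change. Klf10 lies to the right of the cloud, Klf9 and Klf2 toward its lower right, and Klf6 and Klf5 at its lower left.

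The genes whose ratios lay closest to those of the 2 members with the widest range over the arrays, Klf10 (1.16) and Klf2 (0.88), were found by the distance in both log2 ratios over wildtype, which rests on 3 arrays alone. Nearest to Klf10 were Il17ra, Ccdc28b and Phf13, at distances of 0.02, 0.04 and 0.05. Nearest to Klf2 were Rpia, Noct and Sh2d5, at 0.06, 0.08 and 0.09. Of 13121 genes, 40 lay within 0.2 of Klf10 and 25 within 0.2 of Klf2.

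The array holds 7 other KLF genes. Klf1, Klf8, Klf16 and Klf17 were detected throughout, and Klf12 and Klf14 nowhere. Klf16, another gene of the SIN3A-binding type, had 609 in LIFR KO, 405 in gp130 KO and 569 in wildtype, with log2 ratios over wildtype of 0.10 and -0.49. Over all genes compared, 4.49% were past 2-fold in LIFR KO and 2.4% in gp130 KO. None of the 4 other KLF genes compared was past 2-fold in LIFR KO, with a median log2 ratio of -0.13. In gp130 KO 1 of 5 was, Klf15, a gene of fasting metabolism, with 15.0 in gp130 KO and a wildtype probe not well above background at 2.73. It was at least 2.16-fold higher, which dropped to 1.43-fold when the floor was the lowest single spot detected in wildtype, and the median of the 5 was 0.08. Of 9 genes of the related SP family, 6 were compared and none was past 2-fold in either knockout, with medians of -0.25 in LIFR KO and 0.12 in gp130 KO. Sp1, the founding member, had 2058 in LIFR KO, 2644 in gp130 KO and 2478 in wildtype.

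Partners of the KLF proteins were well above background throughout. For the counts below, 4.49% of all genes compared were past 2-fold in LIFR KO and 2.4% in gp130 KO. All 14 corepressors and coactivators on the list were so on every array, and none was past 2-fold in either knockout, with median log2 ratios of 0.05 in LIFR KO and 0.12 in gp130 KO. Sin3b, a scaffold of the SIN3 complex, had 15286 in LIFR KO, 15714 in gp130 KO and 14707 in wildtype. None of 14 genes for ligases and other enzymes that act on KLF proteins was past 2-fold either, with medians of 0.00459 in LIFR KO and 0.10 in gp130 KO. Of the genes upstream of KLF genes, 1 of 18 compared in LIFR KO was past 2-fold, Trp53, the gene of p53, 2.27-fold lower at 62.3 in LIFR KO against 141 in wildtype. With 18 genes, 1 call is not a result about this list. None of 19 was past 2-fold in gp130 KO, and the medians of -0.00421 and -0.00410 were near those of all genes.

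**Figure D4:**
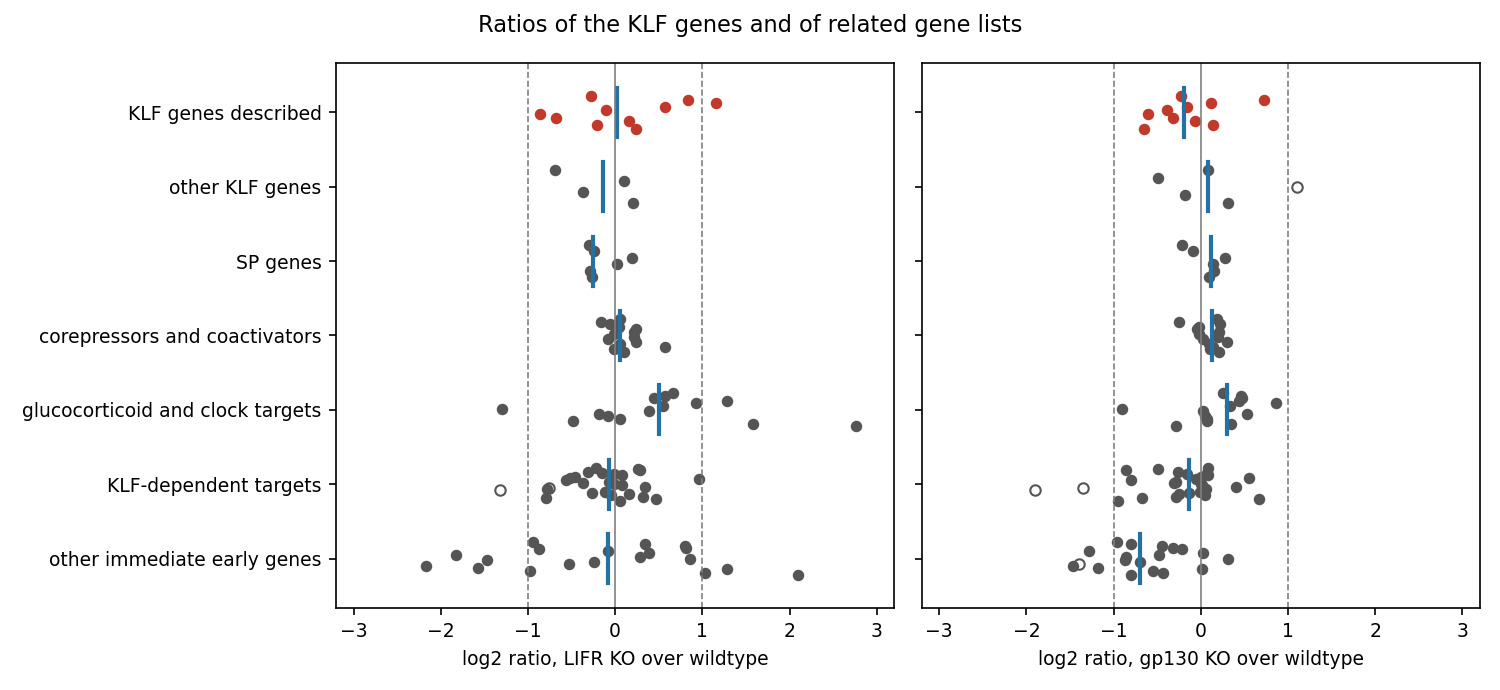
Log2 ratios over wildtype of LIFR KO (left) and gp130 KO (right) for the 10 KLF genes in red and 6 related gene lists in grey, 1 point per gene compared, with open points for ratios known only as bounds, blue bars at the medians and dashed lines at 2-fold. In LIFR KO the median was 0.50 for the glucocorticoid and clock targets and 0.02 for the KLF genes, and in gp130 KO -0.69 for the other immediate early genes.

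Genes that, like Klf9, are known targets of the glucocorticoid receptor or of the clock were compared next, from a list chosen with earlier results of these arrays known. Of 14 genes, 3 were past 2-fold higher and 1 lower in LIFR KO, where 2.87% and 1.62% of all genes were, with a median log2 ratio of 0.50 against -0.03 over all genes. Per1 was 6.77-fold higher, at 6347 in LIFR KO against 938 in wildtype, and Nr1d1 2.43-fold higher, at 131 against 53.9. Per2 had 91.7 in LIFR KO against 30.6 in wildtype, a log2 ratio of 1.58, and all 3 are components of the circadian clock. Nfkbia, the gene of an inhibitor of NF-kB, was 2.45-fold lower, at 3603 in LIFR KO against 8825 in wildtype. Glucocorticoid targets on the list did not share the rise of the clock genes. Log2 ratios in LIFR KO were -0.48 for Tsc22d3, -0.19 for Zbtb16, -0.08 for Sgk1, 0.06 for Fkbp5 and 0.39 for Dusp1. The median of 0.50 thus does not speak for glucocorticoid targets. In gp130 KO none of the 14 was past 2-fold, where 2.4% of all genes were, and the median was 0.30, against 0.03 over all genes.

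Genes known as bound by or dependent on KLF proteins in one cell type or another were compared as a list. In LIFR KO 1 of 27 compared was past 2-fold, on the lower side, where 1.62% of all genes were, and the median log2 ratio was -0.07 against -0.03 over all genes. In gp130 KO 2 of 27 were past 2-fold, both lower, where 0.785% of all genes were, and the median was -0.13 against 0.03 over all genes. Thbd, the thrombomodulin gene that KLF2 activates in endothelium, had 36.8 in wildtype and was not well above background in either knockout, so it was at least 2.49-fold lower in LIFR KO and at least 3.74-fold lower in gp130 KO. S1pr1, a KLF2 target in T cells, was likewise well above background in wildtype alone, at least 1.69-fold lower in LIFR KO and at least 2.54-fold lower in gp130 KO. Bounds of the 2 knockouts cannot be set against each other, since the floor before scaling was 16.7 in LIFR KO and 9.66 in gp130 KO. The scaled S1pr1 signal itself was 7.54 in LIFR KO and 9.03 in gp130 KO. Other known KLF2 targets on the list did not fall in gp130 KO, where Klf2 was low. Nos3 had 155 in LIFR KO, 280 in gp130 KO and 268 in wildtype, and Itgb7 had 171, 178 and 135. Klf2 itself had 875 in LIFR KO against 743 in wildtype, and whether these genes follow it was not tested. Odc1, the gene of ornithine decarboxylase, had 37066 in LIFR KO, 33727 in gp130 KO and 37553 in wildtype.

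The factors that KLF2, KLF4 and KLF5 are known to work with in naive cells were all on the array but detected only in part. Of 14 such genes, 6 were detected on every array and 7 on no array. Pou5f1 was among the 6, with the low signals given above, and Sox2, Prdm14 and Zfp42 were among the 7. The 7 genes compared were the 6 detected on every array and a gene detected on some arrays only. None of those compared was past 2-fold, where 4.49% of all genes were in LIFR KO and 2.4% in gp130 KO. Their medians were -0.41 in LIFR KO and -0.01 in gp130 KO, and Sall4 had 254 in LIFR KO, 353 in gp130 KO and 312 in wildtype.

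Of 20 other immediate early genes, a class that Klf2, Klf4, Klf6 and Klf10 are also known to belong to, 19 were compared. In LIFR KO 3 were past 2-fold higher and 4 lower, where 2.87% and 1.62% of all genes were, with a median log2 ratio of -0.08 against -0.03 over all genes. Fos was 4.27-fold higher, at 189 in LIFR KO, 25.4 in gp130 KO and 44.2 in wildtype. Egr1 had the log2 ratio -2.17, at 97.0 in LIFR KO, 158.5 in gp130 KO and 436 in wildtype. Myc was 3.54-fold, Fosl1 2.98-fold and Ier3 2.76-fold lower. In gp130 KO none was past 2-fold higher and 4 were lower, where 1.61% and 0.785% of all genes were, with a median of -0.69 against 0.03 over all genes. Against these, Klf10 was higher and Klf6 lower in LIFR KO, and in gp130 KO Klf2 and Klf6 were lower, as given above.

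**Figure D5:**
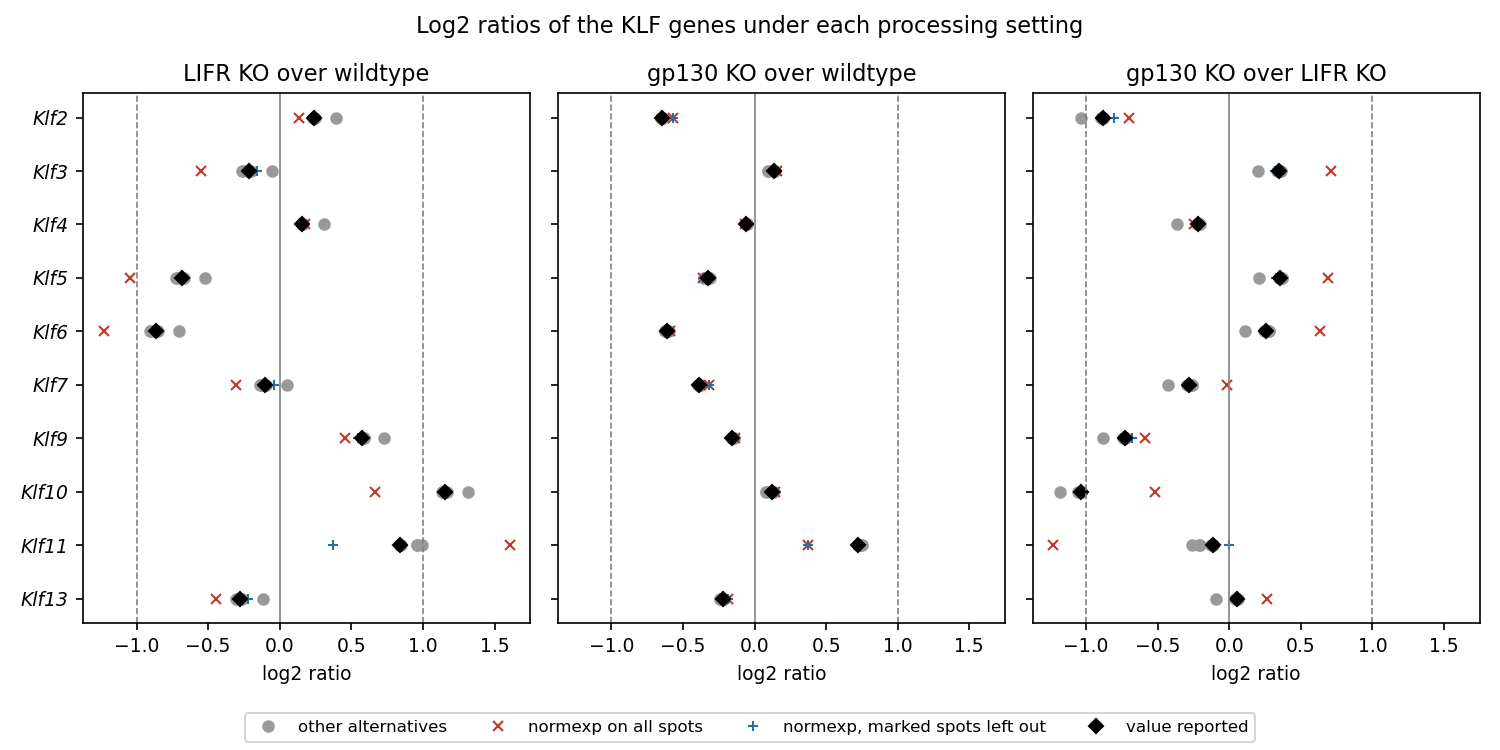
Log2 ratio of each KLF gene in the 3 comparisons under the reported setting (diamonds) and 11 alternatives, with crosses for normexp on all spots, plus signs for normexp with marked spots left out, grey circles for the others and dashed lines at 2-fold. Alternatives on dim probes, floors, outlier spots and probe averaging cannot move these ratios and lie on the reported value. Normexp on all spots moves the comparisons that use the LIFR KO array, with Klf10 at 0.67 and Klf6 at -1.22 over wildtype.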

How the data were processed

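Total RNA was labelled with Cy3 and hybridised to 1 single-colour array per genotype, per the labels. The deposited intensity is the scanner software's background-subtracted processed signal, not normalised between arrays, from Feature Extraction 11.0.1.1 with protocol GE1_1100_Jul11 on design 026655 (mm9), per the file headers; the submitters' processing notes name version 9.1. The deposited log2 series matrix, with a median of 5.39 in each column and normalised by a method not given in the sources used here, correlated with log2 signal at r = 0.995 to 0.996 and served as an alternative.

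Outlier spots were left out, repeated spots averaged, and each array scaled on its 75th percentile over spots (signals of 749.9, 652 and 664 in LIFR KO, gp130 KO and wildtype). Accessions named 27234 of 39429 probes through RefSeq's GRCm38.p6 gene table, and a gene was read from its brightest probe. A gene was compared when well above background on at least 1 of 2 arrays; a dim value was floored at the lowest probe signal well above background (16.7, 9.66 and 6.94). A spot was marked as stray where local background passed 2 times the array's median on any array (253 of 43020 spots). With no replicates no test was run, and 2-fold was a rule of size. The comparison was also run on simulated arrays, copies of the wildtype array with small noise and large changes in bright probes. These held no stray signal and no spread between cultures, so the run checks the counting alone and says nothing about the real calls. Repeated spots had a median SD of at most 0.054 on the log2 scale, and the number of arrays limits precision. Named genes were all members, genes of the lists past 2-fold (at most 5 a list) with the brightest of each list, the targeted genes, and the nearest in ratio to 2 members; 1 gene so named is not reported here. Further genes of the glucocorticoid and clock list and of the KLF-dependent list were named to show values that go another way. Members, lists and rules were chosen with earlier results of these data known. Normexp used the median spot signal, as a mean signal column was not used here. Tools were Python 3.11.15, pandas 2.3.3, R 4.3.3 and limma 3.58.1 (normexp, offset 50).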

Additional observations from a re-analysis of the deposited data

How the results depend on the processing

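The 30 member ratios were recomputed under 11 alternatives, giving 330 values, of which 315 lay within 1 scanner error of the reported ratio. The other 15 came from normexp, 13 of them with all spots and 2 without stray signal. Each member had 1 probe with 1 spot, well above background on every array and no outlier. Settings on dim probes, floors, outlier spots and probe averaging thus returned the reported ratio by construction. They are included in the counts of this paragraph, which therefore overstate how far the ratios were tried. The sign held in every alternative for 27 of 30 ratios, the exceptions being Klf7 for LIFR KO over wildtype (-0.30 to 0.05) and Klf11 (-1.23 to 0.00104) and Klf13 (-0.10 to 0.26) for gp130 KO over LIFR KO. The ratio of Klf10 for LIFR KO over wildtype ranged from 0.67 to 1.32 and was past 2-fold in 10 of 11. Scaling on medians moved the median of all genes by 0.13 for LIFR KO over wildtype and by -0.12 for gp130 KO over LIFR KO. Members past 2-fold numbered 3 for LIFR KO over wildtype with normexp on all spots, with Klf5 at -1.05, Klf6 at -1.22 and Klf11 at 1.61 past it and Klf10 no longer, and 2 for gp130 KO over LIFR KO with median scaling, where Klf2 joined Klf10.

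The counts of all genes past 2-fold depended more on the setting. Against 653, 357 and 494 genes for LIFR KO over wildtype, gp130 KO over wildtype and gp130 KO over LIFR KO, normexp on all spots gave 3396, 43 and 3293, normexp without stray signal 178, 42 and 114, no filter on dim probes 1667, 1247 and 1532, and both arrays well above background 430, 144 and 308. For LIFR KO over wildtype normexp on all spots gave 3302 higher and 94 lower, against 417 and 236; for gp130 KO over wildtype it gave 10 and 33, against 240 and 117, and for gp130 KO over LIFR KO 47 and 3246, against 191 and 303. With no filter LIFR KO over wildtype gave 649 higher and 1018 lower, and gp130 KO over LIFR KO 969 and 563. The cause was not tested. No paired analysis was possible because each genotype had 1 array. Signal over background limits the ratios of Klf11, whose signals were 74.8, 69.1 and 41.9.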
